A study of Mus musculus with 8 samples.

Results

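The genes described here are 31 genes of glycolysis, lactate transport and the hypoxia response, taken by name from a list and found among the 38293 gene identifiers of the count table. All 31 were found, and 30 of them had enough counts to be tested among 13972 genes. Polyadenylated RNA of the left ventricle was sequenced from C57BL/6J mice 3 days after ischemia-reperfusion, a temporary closure of a coronary artery. UPy-PEG, a hydrogel that releases its cargo slowly, was injected into the wall of all hearts (2 times 10 µl). For 4 libraries the gel was drug-free (hydrogel group), and for 4 it held antimiR-195, which is designed to bind and block miR-195. No uninjured heart is among these groups, so the response to the injury itself was not measured. Ages are not given in the labels. No label states that the 8 libraries come from 8 animals, so a p-value here reflects how these libraries vary, which may be technical.

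Glycolysis splits glucose into pyruvate in a fixed series of steps, and lactate dehydrogenase interconverts pyruvate and lactate. Several steps have a muscle isoform and a ubiquitous one, encoded by different genes. The adult heart burns mainly fatty acids and lactate, and its muscle cells rely more on glycolysis when oxygen is short. The transcription factors HIF-1 and HIF-2 are hydroxylated and degraded when oxygen is present. When oxygen is low they bind the short core of the hypoxia response element and raise glycolytic genes.

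The drug acts on a microRNA, so the microRNA and its possible sites in these genes are shown first. The mature mmu-miR-195a-5p is encoded on chromosome 11 at 70235062 to 70235082 (GRCm38.p6, plus strand, RefSeq). Its seed, bases 2 to 8, is in capitals here and is shared by 11 mouse mature miRNA entries of that table, among them miR-15a, miR-15b and miR-16.
mmu-miR-195a-5p: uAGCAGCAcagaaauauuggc
Of the 30 members with an annotated 3′ UTR of at least 50 bases, 11 or 36.7% held a match to this seed of 7 bases or more, against 28.5% of 12874 tested genes. A match pairs with seed bases 2 to 8, or with bases 2 to 7 followed by an A, and the 8-base class has both. That class was found in Pfkp and Egln3. The windows below show those matches and those of the glucose transporter Slc2a1, the lactate exporter Slc16a3 and the enolase Eno1. Pfkp and these 3 had the 4 highest log2 fold changes among members with a match, so the windows shown lean to the positive side. Without antimiR-195 replicate 2 the values were 0.06 for Pfkp, 0.09 for Slc2a1, 0.09 for Slc16a3 and 0.13 for Eno1. None of them passed the test between the groups. Epas1, the lowest at -0.16, has no window here. The windows are printed with the match in capitals, read from GENCODE M21 transcripts.
Pfkp, chr13:6580217-6580246, minus strand: tggctgtgagcTGCTGCTAgttggaagcta
Egln3, chr12:54179438-54179467, minus strand: accctcgtttcTGCTGCTActtccccaact
Slc2a1, chr4:119136630-119136658, plus strand: gaaagcaagacTGCTGCTcagatctattc
Slc16a3, chr11:120960511-120960539, plus strand: tcctggaagaaTGCTGCTcagatgcacgg
Eno1, chr4:150248575-150248603, plus strand: tggagccaccaGCTGCTAggtcctctatc
The other members with a match were Hk2, Pfkl, Pfkfb2, Pfkfb3, Aldoa and Epas1. A match of letters is a description and does not show that the site is used. The 11 tested members with a match had log2 fold changes of antimiR-195 over hydrogel from -0.16 to 0.65 with a median of 0.05, and 7 were positive. The 18 tested members without one ranged from -0.35 to 0.18 with a median of -0.04, and 6 were positive. Among all 13972 tested genes 52.4% were positive, and the share among those with a match was not computed. The difference between members with and without a match was not tested.

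The libraries held 16872968 to 22751753 gene counts each, and antimiR-195 replicate 2 stood apart. It correlated with the others at 0.944 to 0.970 over log2 CPM of the tested genes (counts scaled to the normalized library size), where each other library had a partner at 0.988 to 0.991. Values without it are printed beside many of the results.

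Some markers of other cells were also high in antimiR-195 replicate 2. In bulk tissue, a change in the number of cells of a type and a change in RNA per cell cannot be told apart. The 10 listed neutrophil genes, of which 6 were tested, summed to 72.5 CPM in that library and to 25.5 to 37.0 CPM in the other 7, with Ly6g at 0 counts in all libraries. S100a8 at 20.5 CPM and S100a9 at 31.9 CPM made up most of that sum, against 4.37 to 6.88 and 5.15 to 10.2 CPM elsewhere, while Csf3r, at 13.9 CPM, lay within its range of 7.85 to 14.7 CPM in the others, as did Cxcr2 and Mmp8. The 15 macrophage and monocyte genes summed to 2630 CPM against 1580 to 2520 CPM, and the 14 fibroblast and myofibroblast genes to 9970 CPM against 4980 to 9220 CPM. At the median, short genes were higher in this library and long genes lower, as described further below. The part of gene length in these marker values was not tested. Nor was the part of these cells in the Slc16a3, Eno1 and Ldha values. Cardiomyocyte genes (16 of 16 tested) summed to 92200 to 114000 CPM in hydrogel and 97500 to 114000 CPM with antimiR-195.

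Skeletal muscle also carries Pgam2, Eno3 and Pfkm, so its markers were read as well. Of 15 listed genes 6 were tested, and their sum of 1810 to 2700 CPM in hydrogel and 1700 to 2480 CPM with antimiR-195 came mostly from Ckm, which cardiomyocytes express too. The fast skeletal myosins Myh1, Myh2 and Myh4 had at most 6 counts in any library, and the troponin gene Tnnc2 at most 5. Other genes of the list were present: Mybpc2 was at 21.3 to 48.2 CPM. Tnnt3 was at 8.10 CPM in antimiR-195 replicate 2 against 1.29 to 3.75 CPM elsewhere, Tnni2 at 6.89 against 2.15 to 4.50 CPM and Casq1 at 12.9 against 4.52 to 8.21 CPM. That library was not the highest for Ckm, at 2410 CPM against 2660 CPM in hydrogel replicate 3. Nor was it for Mybpc2, at 41.8 CPM against 48.2 CPM in antimiR-195 replicate 1. Pgam2 and Eno3 were highest in antimiR-195 replicate 2 too, while Pfkm, at 854 CPM, lay within its range of 841 to 989 CPM in the others. The part of skeletal muscle in the values of these genes was not tested.

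No member passed the test between the groups. With edgeR's quasi-likelihood method, 0 of 30 members and 0% of all 13972 genes had an adjusted p below 0.05, and every member had an adjusted p of 0.9999. At an unadjusted p below 0.05 there were 0 members, where 1.27% of all genes lay below it. By DESeq2 and by limma-voom with quality weights 0 members were called as well, with 0 at an unadjusted p below 0.05 in each. The groups overlapped in all 30 members, and they did not overlap in 1.07% of all genes. Positive log2 fold changes were found in 14 of the 30 and in 52.4% of all genes, and the medians were -0.02 and 0.01. The positive members numbered 10 when antimiR-195 replicate 2 was dropped and 18 when hydrogel replicate 3 was dropped.

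The intervals show how large a difference could have been missed. The 95% confidence interval of the log2 fold change lay within 1 of zero, a 2-fold difference, in 29 of 30 members, and within 0.5, a 1.41-fold difference, in 17. Its half-width was 0.33 at the median. It was narrowest for Pgk1, from -0.22 to 0.19, and widest for Slc16a3, from -0.11 to 1.41.

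**Figure D1:**
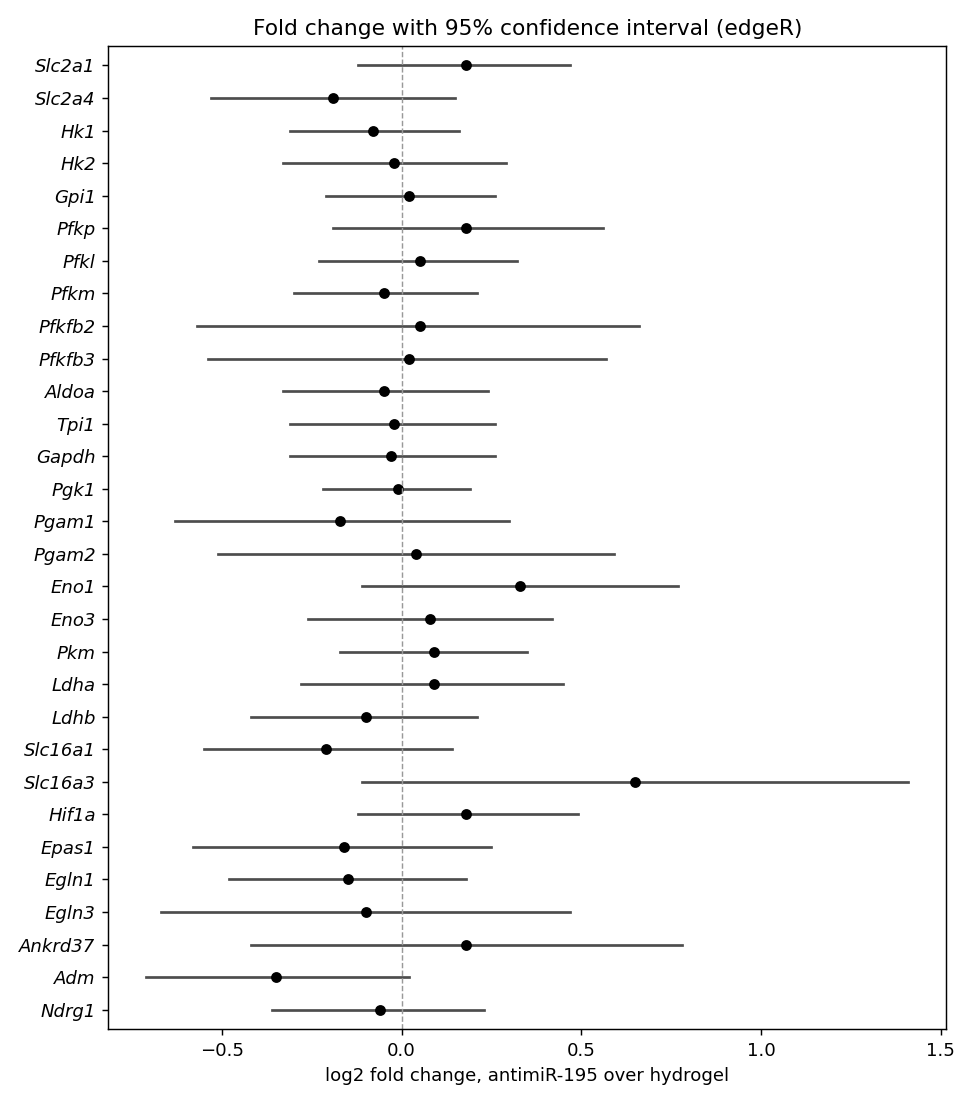
Log2 fold change of antimiR-195 over hydrogel (x axis) for the 30 tested members (rows, in pathway order). Bars give the 95% confidence interval derived from edgeR's quasi-likelihood test. Every bar crosses 0, and the interval of Slc16a3, up to 1.41, is the widest.

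The level of each gene per kilobase (RPKM, as deposited by the authors) placed muscle isoforms near the top of the pathway. Aldoa, the aldolase of muscle and most other tissues, had the highest mean of the 31 genes over the 8 libraries, at 868 RPKM with a range of 782 to 942. It was followed by Ldhb at 829, Pgam2 at 691 and Eno3 at 623 RPKM. Aldoa and Ldhb each exceeded Eno3 in every library, while the order of Aldoa and Ldhb, and the place of Pgam2 among these 4, changed from library to library. Pkm followed at 392, Pfkm at 302, Ldha at 277 and Tpi1 at 248 RPKM. Gapdh was at 132 RPKM, where the RPKM implied a length of 3893 bases against 1420 for its longest coding transcript. Of the 50-base words of that transcript, 82.5% occur in another gene. For Ldha the 2 lengths were 2982 and 1815 bases, and for Pgam2 both were 840. The effect of length and shared sequence on this order was not tested. At the low end were Pfkfb3 at 1.97, Slc16a3 at 1.90 and Aldoc, the brain aldolase, at 0.148 RPKM. Aldoc had 6 to 11 counts per library and was the member that did not pass the filter.

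**Figure D2:**
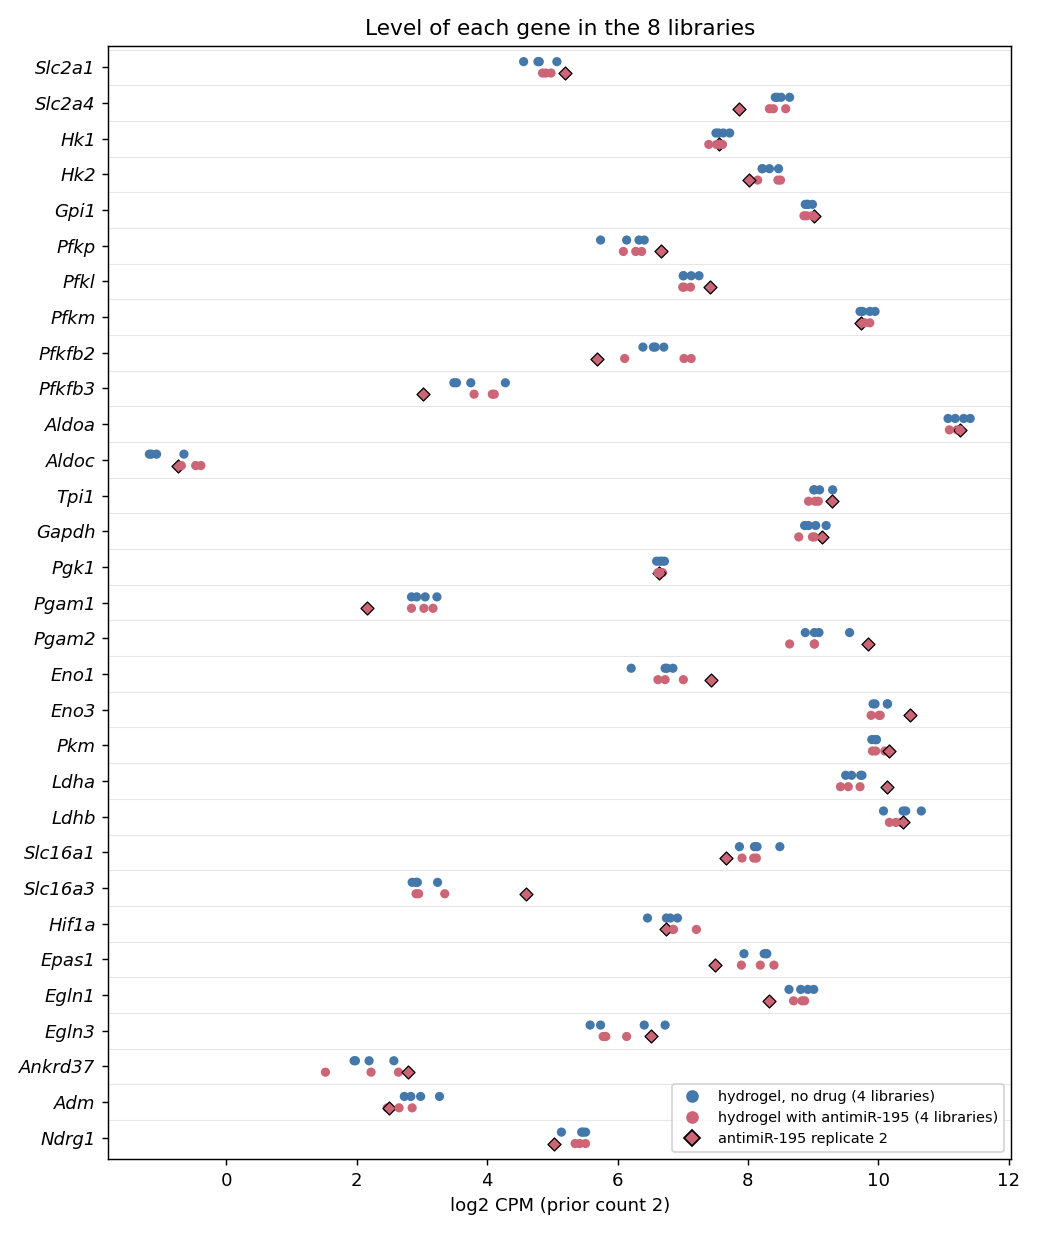
Level of each of the 31 genes (rows, in pathway order) as log2 CPM (x axis, prior count 2) in the 8 libraries, blue for hydrogel and red for antimiR-195. The red diamond with a black edge, antimiR-195 replicate 2, lies at the edge of the points in many rows, for example at 24 CPM for Slc16a3 against 7.09 to 10.1 in the other libraries.

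Muscle isoforms exceeded their ubiquitous partners in every library. In all 40 comparisons of 5 pairs in 8 libraries the muscle isoform had the higher RPKM. Ldhb, the heart form, is counted as a muscle isoform here because the list does so. For phosphoglycerate mutase, which moves the phosphate within phosphoglycerate, Pgam2 made up 99.3% ± 0.193 of the pair with Pgam1 in hydrogel and 99.4% ± 0.328 with antimiR-195 (SD, n = 4 each). For enolase, which forms phosphoenolpyruvate, Eno3 made up 97.0% ± 0.720 and 96.5% ± 0.344 of the pair with Eno1. Pfkm, the muscle subunit of the rate-setting phosphofructokinase, made up 90.7% ± 0.683 and 90.2% ± 1.49 of its pair with the liver subunit Pfkl. The insulin-responsive glucose transporter Slc2a4 (GLUT4) made up 91.4% ± 1.47 and 88.8% ± 3.35 of its pair with Slc2a1 (GLUT1). The heart form of lactate dehydrogenase, Ldhb, had the lowest share at 76.1% ± 1.75 and 74.0% ± 3.21 of the pair with Ldha.

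The ratio of muscle to ubiquitous isoform differed between the groups by no more than the libraries within a group did. An exact two-sided permutation test over the 70 assignments of the libraries was applied to the log2 ratio of counts of each of the 5 pairs, and its smallest possible p is 0.0286. Of these 5, Slc2a4 over Slc2a1 had the largest difference, with 3.31 ± 0.45 under antimiR-195 and 3.71 ± 0.26 in hydrogel (SD, n = 4), a difference of -0.40 with exact p = 0.2 and 0.523 adjusted over the 5 ratios. The difference was -0.18 without antimiR-195 replicate 2. For Eno3 over Eno1 it was -0.25 (exact p = 0.314), for Ldhb over Ldha -0.16 (exact p = 0.314), for Pfkm over Pfkl -0.08 (exact p = 0.657) and for Pgam2 over Pgam1 0.20 (exact p = 0.743). Adjusted over the 5 ratios, the exact p was 0.523 for the Eno3 and Ldhb ratios and 0.743 for the Pfkm and Pgam2 ratios. Without antimiR-195 replicate 2 the Pgam2 ratio was -0.25, the Pfkm ratio 0.02, the Ldhb ratio -0.04 and the Eno3 ratio -0.21. The Eno3 ratio was -0.07 without hydrogel replicate 2. Outside these 5, and with no adjustment, 3 further ratios were computed. Pfkm over the platelet subunit Pfkp differed by -0.24 (exact p = 0.457), with a share of 97.5% ± 0.628 in hydrogel and 97.1% ± 0.554 with antimiR-195 (SD, n = 4; exact permutation test on the ratio). Hk1 over Hk2 differed by -0.05 (exact p = 0.743). Aldoa over Aldoc differed by -0.57 (exact p = 0.0571), the largest of the 8, and rests on the 6 to 11 counts of Aldoc. As single genes, 2 of the 5 muscle isoforms had positive log2 fold changes with a median of -0.05, and 4 of the 5 ubiquitous partners with a median of 0.09.

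**Figure D3:**
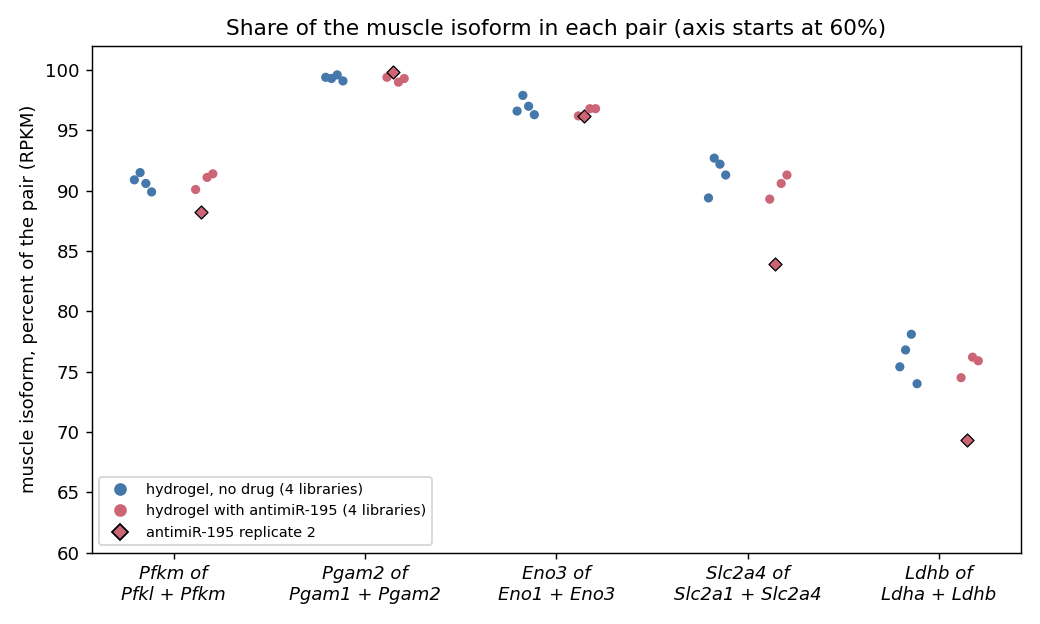
Share of the muscle isoform in the summed RPKM of each pair (y axis, percent, starting at 60) in the 8 libraries, with hydrogel in blue and antimiR-195 in red. The Ldhb share runs from 69.3% to 78.1% and the Slc2a4 share from 83.9% to 92.7%, and antimiR-195 replicate 2 (diamond) has the lowest value of both.

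How much of a gene's sequence is found elsewhere bears on these levels, because the count files list reads that aligned to more than 1 place apart from the genes. In the longest coding transcript of each member, every 50-base word was searched for in all other genes of GENCODE M21. Words shared with another gene made up 82.5% for Gapdh, 72.2% for Eno1, 68.0% for Pgk1, 41.5% for Pgam1 and 34.4% for Pkm. Gapdh shared at least 10% of its words with each of 72 other genes. Among the 5 muscle isoforms, Pgam2, Eno3, Pfkm and Slc2a4 shared 0% and Ldhb 27.0%. Dividing each level by the share of words not found elsewhere, a choice made after seeing the data, changed the mean shares over 8 libraries. Eno3 was at 89.2% in place of 96.7%, Pgam2 at 98.9% in place of 99.3% and Ldhb at 77.4% in place of 75.0%. This kept the lengths implied by the RPKM, which can differ from the longest coding transcript. For Eno1 they were 5379 and 2027 bases, and for Eno3 1739 and 1564. For Ldha they were 2982 and 1815, and for Ldhb 1570 and 1304. For Slc2a4 they were 3478 and 2524, and for Slc2a1 2853 and 3260. The effect of this on the shares was not tested. The levels of Gapdh, Pgk1, Eno1 and Pgam1 are uncertain beside those of other genes. Exons of Ankrd37 overlap those of genes on the opposite strand over 26.4% of their bases, Gpi1 over 11.5% and Ndrg1 over 8.43%. For Pfkp it was 5.58%, with Pitrm1, which holds 17.1% of the words of Pfkp. The mean count of Pitrm1 was 1110, beside 1433 for Pfkp. Of the exon bases of Pfkm, 10.2% overlap a gene on the same strand. How the counting treated strand is unknown here, so counts of these genes are uncertain too.

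**Figure D4:**
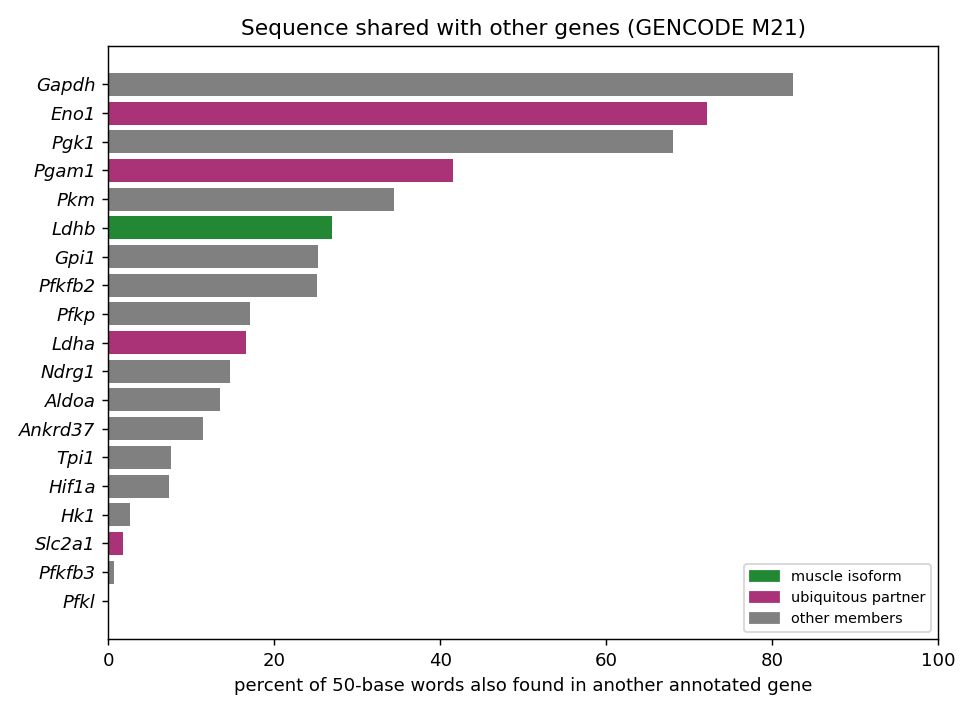
Percent of the 50-base words of each member's longest coding transcript that also occur in another annotated gene (x axis), for the 19 members with any such word. Gapdh reaches 82.5%, Eno1 72.2% and Pgk1 68.0%. Ldhb at 27.0%, the heart form, is the only gene in the plot that is listed as a muscle isoform.

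Glucose enters the cell through GLUT1 and GLUT4. Slc2a4 was at 342, 364, 399 and 350 CPM in hydrogel replicates 1 to 4 and at 321, 232, 336 and 383 CPM in antimiR-195 replicates 1 to 4. The low library was antimiR-195 replicate 2, and the others overlapped. Its log2 fold change was -0.19 ± 0.15 (SE), and -0.08 without that replicate. Slc2a1 was at 33.4, 23.5, 27.7 and 27.4 CPM in hydrogel and at 31.4, 36.5, 28.7 and 29.8 CPM with antimiR-195. Here the same library was the highest, and the log2 fold change was 0.18 ± 0.13, or 0.09 without it.

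The first steps trap and rearrange glucose. Hk2, the insulin-regulated hexokinase of muscle, was at 259 to 363 CPM over the 8 libraries, and Hk1, the hexokinase of most tissues, at 169 to 210 CPM. Their log2 fold changes were -0.02 ± 0.14 and -0.08 ± 0.11. Per kilobase Hk2 stood at 52.9 RPKM and Hk1 at 22.1 RPKM, with ranges of 45.0 to 60.2 and 20.2 to 24.1, so Hk2 was higher in every library. The RPKM implied a length of 8532 bases for Hk1, against 4278 for its longest coding transcript. For Hk2 these lengths were 5969 and 5513 bases. The effect of this on the gap between Hk2 and Hk1 was not tested. Gpi1, which turns glucose 6-phosphate into fructose 6-phosphate, was at 465 to 519 CPM, a spread of 1.12-fold.

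Phosphofructokinase commits sugar to glycolysis, and its activator fructose 2,6-bisphosphate is made by the Pfkfb enzymes. Pfkm was at 841 to 989 CPM, Pfkl at 128 to 171 CPM and the platelet form Pfkp at 53.5 to 101 CPM, with log2 fold changes of -0.05 ± 0.12, 0.05 ± 0.13 and 0.18 ± 0.17. Leaving out antimiR-195 replicate 2 moved Pfkp to 0.06 and Pfkl to -0.07, and Pfkp was also at 0.06 without hydrogel replicate 3. Pfkfb2, the heart form of the activator enzyme, was at 95.6, 83.9, 93.3 and 105 CPM in hydrogel and at 69.1, 51.5, 140 and 130 CPM with antimiR-195. The antimiR-195 libraries lay on both sides of the hydrogel range, with 2 below and 2 above it. The coefficient of variation of Pfkfb2 was 45.0% with antimiR-195 and 9.13% in hydrogel, and the log2 fold change was 0.05 ± 0.28. Dropping antimiR-195 replicate 2 gave 0.25, and dropping replicate 3 of that group gave -0.18. Pfkfb3, the inducible form, was at 11.1 to 19.3 CPM in hydrogel and 7.99 to 17.2 CPM with antimiR-195.

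The middle and later steps carry most of the transcript. Aldolase Aldoa was at 2160 to 2720 CPM, Tpi1, the triose phosphate isomerase, at 487 to 631 CPM, and Gapdh, which makes the first NADH of the pathway, at 441 to 587 CPM. Pgk1, which makes the first ATP of the payoff phase, was at 96.9 to 106 CPM, the smallest spread of the 31 genes at 1.09-fold. Pkm, pyruvate kinase of muscle and most other tissues, was at 953 to 1150 CPM with a log2 fold change of 0.09 ± 0.12. Leaving out antimiR-195 replicate 2 gave 0.04.

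Pgam2 had the wider spread of the 2 mutases in CPM, at 543, 518, 753 and 472 CPM in hydrogel and 519, 917, 400 and 519 CPM with antimiR-195. AntimiR-195 replicates 2 and 3 were the highest and the lowest of all 8 libraries. The log2 fold change was 0.04 ± 0.25 with all libraries and -0.27 without antimiR-195 replicate 2. Pgam1 was at 4.38 CPM in that replicate and at 7.06 to 9.27 CPM elsewhere, with a log2 fold change of -0.17 ± 0.21, or 0 without it. Eno1 was at 108, 73.7, 106 and 116 CPM in hydrogel and 129, 174, 98.2 and 106 CPM with antimiR-195, with a log2 fold change of 0.33 ± 0.20 (edgeR quasi-likelihood, unadjusted p = 0.128). The highest value was again antimiR-195 replicate 2, without which the log2 fold change was 0.13. Eno3 was at 988, 1130, 1130 and 968 CPM in hydrogel and 1040, 1430, 952 and 1030 CPM with antimiR-195, a log2 fold change of 0.08 ± 0.15, or -0.07 without the same library.

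At the last step, Ldha, the form known for making lactate, was at 848, 768, 863 and 725 CPM in hydrogel and at 844, 1120, 686 and 746 CPM with antimiR-195. All libraries but antimiR-195 replicate 2 lay between 686 and 863 CPM. Ldhb, the form known for lactate use in heart, was at 1370, 1340, 1620 and 1090 CPM in hydrogel and 1300, 1330, 1160 and 1240 CPM with antimiR-195. The hydrogel range enclosed all antimiR-195 values, and the log2 fold changes were 0.09 ± 0.16 for Ldha and -0.10 ± 0.14 for Ldhb. Without antimiR-195 replicate 2, Ldha was at -0.09, and without hydrogel replicate 3, Ldhb was at -0.01.

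Lactate and pyruvate cross the membrane through monocarboxylate transporters. Slc16a1 (MCT1), known for lactate uptake in heart, was at 282, 275, 359 and 234 CPM in hydrogel and at 279, 204, 241 and 273 CPM with antimiR-195, a log2 fold change of -0.21 ± 0.16. It was -0.13 without antimiR-195 replicate 2 and -0.08 without hydrogel replicate 3. Slc16a3 (MCT4), known for lactate export from glycolytic cells, was at 7.51, 7.09, 7.39 and 9.32 CPM in hydrogel and at 10.1, 24, 7.60 and 7.40 CPM with antimiR-195. A single library, antimiR-195 replicate 2, stood apart, and the other antimiR-195 libraries overlapped the hydrogel group. Its log2 fold change of 0.65 ± 0.35 (edgeR quasi-likelihood, unadjusted p = 0.087 and adjusted p = 0.9999) was the largest of the members, and 0.09 without that library.

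Gene length, as implied by the deposited RPKM, moved with the values of several libraries, and antimiR-195 replicate 2 is described first. The log2 CPM of this library minus the mean of the other 7 was 0.35 at the median of the 4651 shortest genes (up to 2657 bases), and -0.29 at that of the 4651 longest (from 4772 bases). Across 13952 genes its correlation with log2 length was r = -0.41, and across 30 members r = -0.25, as a description of genes that share these libraries. In antimiR-195 replicate 3 the same correlation was 0.50 over all genes and 0.63 over the members. It was -0.28 and -0.46 in hydrogel replicate 3, and 0.30 and 0.51 in hydrogel replicate 4. In the other 4 libraries it lay between -0.13 and 0.26 over all genes and between -0.23 and 0.27 over the members. The short Pgam2 (840 bases) deviated by 0.81 and Eno3 by 0.47, and the long Pfkfb2 by -0.95 and Pfkfb3 by -0.85. Members that went the other way included the long Slc16a3 at 1.57, Eno1 at 0.74 and Pfkp at 0.46. The short Pgam1 at -0.85 and Adm at -0.33 did so too. The implied length can exceed that of the longest coding transcript. For Eno1 it was 5379 bases against 2027, so Eno1 is long by the first and short by the second. For Pfkp it was 9395 against 4145, and for Pfkfb2 9621 against 4425. The part of length in the single results was not tested.

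**Figure D5:**
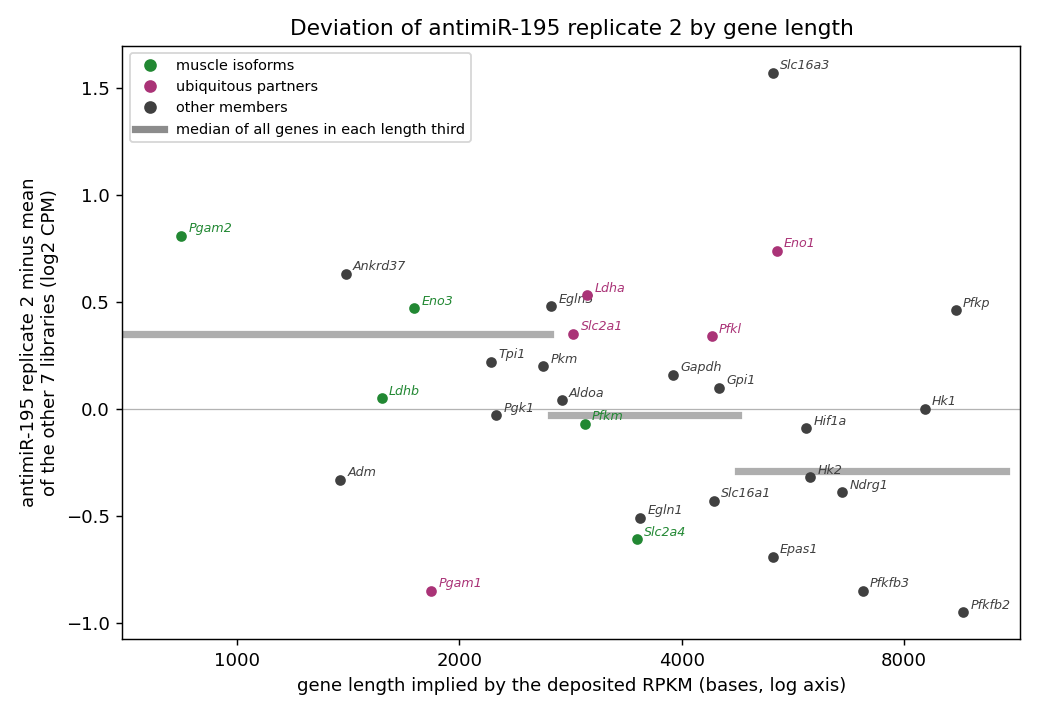
Deviation of antimiR-195 replicate 2 from the mean of the other 7 libraries (y axis, log2 CPM) against gene length implied by the authors' RPKM (x axis, bases, log scale), with 1 point per tested member (muscle isoforms in green, their ubiquitous partners in purple) and grey bars for the median of all genes in 3 length classes. The grey bars step down from 0.35 to -0.29, and Slc16a3 at 1.57 lies above every other member.

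Members were highest in some libraries more often than in others, and their lowest values were spread over 7 of the 8 libraries. AntimiR-195 replicate 2 was the highest library for 11 of the 31 members and the lowest for 9, where over all genes it was the highest for 30.8% and the lowest for 33.1%, so the members were close to all genes in this. Hydrogel replicate 3 was the highest for 10 of 31 members and for 11.5% of all genes. Those 10 were Slc2a4, Pfkm, Aldoa, Tpi1, Gapdh, Pgk1, Ldhb, Slc16a1, Egln1 and Adm. This library also had the lowest fibroblast marker sum, 4980 CPM, and shared the highest cardiomyocyte marker sum, 114000 CPM, with antimiR-195 replicate 2. That other library had the highest fibroblast sum, 9970 CPM, and the lowest Slc16a1, 204 CPM. Its cardiomyocyte genes went both ways. Tnnt2 at 14000 CPM and Tnni3 at 8580 CPM were the highest of all libraries there, and Atp2a2 at 6220 CPM and Ryr2 at 498 CPM the lowest. Hydrogel replicate 4 had the lowest cardiomyocyte sum, 92200 CPM, and a fibroblast sum of 9220 CPM. Ldhb was at 1620 CPM in replicate 3 and 1090 CPM in replicate 4, and Slc16a1 at 359 and 234 CPM, while Pfkp was at 53.5 and 85.2 CPM. The part of tissue composition in these differences, and that of length, was not tested.

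Genes of oxygen sensing overlapped between the groups as well. Hif1a, the oxygen-regulated subunit of HIF-1, was at 107, 121, 87.9 and 112 CPM in hydrogel and 115, 107, 147 and 116 CPM with antimiR-195, a log2 fold change of 0.18 ± 0.14. Leaving out antimiR-195 replicate 3, the highest, gave 0.08. Epas1, which encodes HIF-2 alpha and is known from endothelium, was at 245, 312, 313 and 305 CPM in hydrogel and 238, 180, 338 and 292 CPM with antimiR-195. Hydrogel replicate 1 stood apart from the others of its group, and the log2 fold change was -0.16 ± 0.19. Without antimiR-195 replicate 2 it was -0.03. Endothelial marker sums were 1070 to 1250 CPM in hydrogel and 1120 to 1260 CPM with antimiR-195.

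The prolyl hydroxylases mark HIF for degradation. Egln1 (PHD2) was at 397 to 514 CPM in hydrogel and 320 to 469 CPM with antimiR-195, with a log2 fold change of -0.15 ± 0.15. The value of 320 CPM was antimiR-195 replicate 2, and the log2 fold change was -0.06 with that library left out. Egln3 (PHD3), itself a target gene of HIF, was at 53.2, 106, 84.7 and 47.6 CPM in hydrogel and at 56.2, 90.9, 70.3 and 55 CPM with antimiR-195. High and low libraries occurred in both groups, with a 2.22-fold range over all 8 and a log2 fold change of -0.10 ± 0.26. The value was -0.28 without antimiR-195 replicate 2 and 0.14 without hydrogel replicate 2. The 3 libraries with the highest Egln3, hydrogel replicates 2 and 3 and antimiR-195 replicate 2, also had the 3 highest sums of the 9 erythroid genes, at 1580, 1440 and 1970 CPM against 430 to 1090 CPM in the others, and 8 of the 9 were tested. The order was not the same throughout. AntimiR-195 replicate 1 had an erythroid sum of 1090 CPM and Egln3 at 56.2 CPM. AntimiR-195 replicate 3 had a lower sum, 539 CPM, and higher Egln3, 70.3 CPM. The part of red cells in the Egln3 values was not tested.

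Of the 3 hypoxia-induced members, Adm, the vasodilator peptide adrenomedullin, had the smallest p. It was at 6.50, 7.77, 9.51 and 6.99 CPM in hydrogel and 5.43, 5.52, 6.16 and 7.12 CPM with antimiR-195. The groups overlapped through antimiR-195 replicate 4, and the log2 fold change was -0.35 ± 0.17 (edgeR quasi-likelihood, unadjusted p = 0.0625 and adjusted p = 0.9999). It stayed between -0.44 and -0.23 when each library was left out in turn. Ankrd37, an ankyrin repeat gene induced by HIF-1, was at 3.77 to 5.82 CPM in hydrogel and 2.75 to 6.78 CPM with antimiR-195, a log2 fold change of 0.18 ± 0.27. Leaving out antimiR-195 replicate 2 gave 0. Ndrg1, a stress gene induced by hypoxia, was at 35.3 to 45.5 and 32.3 to 45.6 CPM, with a log2 fold change of -0.06 ± 0.13.

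Further genes of both pathways gave no calls. Of 33 other glycolysis and glycogen genes, 27 were tested, 0 passed in either direction, 7 were positive and 20 negative, and the median log2 fold change was -0.08. Among those with the smallest p were Slc16a7, the monocarboxylate transporter MCT2, at -0.23 ± 0.16 and Pygl, liver glycogen phosphorylase, at -0.23 ± 0.17. All 30 other hypoxia genes were tested, 0 passed in either direction, 14 were positive and 16 negative, and the median was -0.04. Among the smallest p here were those of Bnip3, a mitophagy receptor, at -0.31 ± 0.14 (edgeR quasi-likelihood, unadjusted p = 0.0474) and Stc1, stanniocalcin, at 0.36 ± 0.20. In no gene of these lists were the groups free of overlap, and they were so in only 1.07% of all 13972 tested genes. Positive log2 fold changes made up 52.4% of all tested genes. Slc2a3 and Pfkfb4 are counted in both lists.

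Letter matches to the core of the hypoxia response element were common in the promoters of the members. This core, ACGTG or GCGTG, was searched for on both strands in RefSeq windows of 250 bases before to 50 after each start (GRCm38.p6). Overlapping matches were counted separately. The palindrome CACGTG, also the E-box, counts as 2 matches. Windows were found for 28 of the 31 members, and not for Slc2a4, Epas1 and Ndrg1. Of their 42 windows 35 held a core, 83.3%, against 60.3% of 13509 windows of tested genes. The median GC content was 61.2% in the member windows and 60.7% in those of tested genes. By gene, 25 of 28 members or 89.3% had a core in at least 1 window, against 66.3% of tested genes. At least 3 matches in 1 window were found in 12 of the 28, 42.9%, against 18.2% of tested genes. The shares by gene take the window with the most matches, and more windows give more chances. Members had 42 windows for 28 genes, against 13509 for 10558 tested genes. Some windows of Aldoa and of Eno1 overlap and hold the same match. Since members were listed for glycolysis and hypoxia, all these shares describe the list and test nothing.

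Within the isoform pairs, the Ldha window with the most matches had 7, the most of any member window, and the Ldhb window had 1. The window of Pgam2 had 0 matches and that of Pgam1 3, the window of Eno3 had 1, and each of the 3 windows of Eno1 had 2. The 4 windows of Pfkm had 3, 2, 1 and 0 and that of Pfkl 1. A match is not a bound site, and no binding was measured here.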

How the data were processed

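The members and gene lists were chosen with earlier results of these data known. Total RNA was extracted in TRIzol and a stranded TruSeq mRNA kit was used, per the labels' protocols. STAR, HTSeq, DESeq and GRCm38 appear in the submitters' processing notes, and their versions, the annotation release and the strand setting were not stated there. The authors deposited whole-number counts by Ensembl gene, per library and as a joint table, with 0 differing cells. They also deposited RPKM values, used here for levels between genes, gene lengths and alternatives. HTSeq summary lines, which hold reads of no gene, did not enter the library sizes: no-feature reads made up 6.38% to 7.55% of uniquely aligned reads, and the non-unique alignment line was 42.1% to 47.8% of all reads and alignments in those files. AntimiR-195 replicate 2 had the lowest no-feature share, 6.38%, and the highest non-unique share, 47.8%. The other libraries were at 6.72% to 7.55% and at 42.1% to 44.5%. Symbols were matched by gene identifier in a table of names.

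Counts were filtered with filterByExpr, scaled with TMM and tested with edgeR 4.0.16 (quasi-likelihood, R 4.3.3) over all 8 libraries without covariates, with Benjamini-Hochberg adjustment over 13972 genes and a threshold of 0.05. The script was tested on simulated data. Standard errors and confidence intervals were not given by edgeR. They were derived from the log2 fold change and the F statistic of its test, with a t quantile. CPM are counts scaled to the normalized library size. Ratios used counts with 0.5 added. Alternatives were DESeq2 1.42.0, limma 3.58.1, other factors, filters and pseudocounts, and leaving out each library. All 31 members are named. Of other pathway genes, the 3 of smallest p per list were to be named, and 1 in each list is not reported here. Replicate numbers follow accession order and pair nothing.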

Additional observations from a re-analysis of the deposited data

Results flagged for a closer look

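In groups of 4 libraries, a library whose distance to its nearest neighbour was too large a share of the group's range by Dixon's 95% critical value was singled out. Of 72 groups checked (31 genes and 5 ratios in 2 groups), 2 had such a library, where chance gives about 1 in 20. Slc16a3 was at 24 CPM in antimiR-195 replicate 2, against 7.40 to 10.1 CPM in the other antimiR-195 libraries, a gap of 0.838 of the range. Epas1 was at 245 CPM in hydrogel replicate 1, against 305 to 313 CPM in the other hydrogel libraries, a gap of 0.883 of the range.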

How the results depend on the processing

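No member passed the threshold under any of the 16 alternatives fitted across genes, the lowest adjusted p of a member was 0.892, and 0 to 2 members lay below an unadjusted p of 0.05. The count of genes called was 0 in all of them, also when each library was left out (0 to 0), and so was the count of members. Positive members numbered 12 with limma-voom and 16 on log2(RPKM + 0.1), and from 10 to 18 when single libraries were left out. Of 240 log2 fold changes under the 8 settings that keep all libraries, 229 kept their direction, counting those that came to 0, and 11 changed it. With limma-voom and quality weights these were Hk2 at 0.10, Pfkl at -0.02, Pgam2 at -0.13, Eno3 at -0.02, Ldha at -0.07, Ankrd37 at -0.05 and Ndrg1 at 0.01. That fit gave antimiR-195 replicate 2 a weight of 0.162. On log2(RPKM + 0.1) they were Pfkfb2 at -0.04 and Pgk1 at 0.01, and on log2(RPKM + 1) -0.03 and 0.01. The cause was not tested.

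With single libraries left out, 25 of 240 log2 fold changes changed direction. Their ranges were -0.09 to 0.06 for Hk2, -0.01 to 0.05 for Gpi1, -0.07 to 0.10 for Pfkl, -0.18 to 0.25 for Pfkfb2, -0.10 to 0.21 for Pfkfb3. They were -0.11 to 0.01 for Aldoa, -0.11 to 0.04 for Tpi1, -0.09 to 0.04 for Gapdh, -0.03 to 0.01 for Pgk1, -0.27 to 0.20 for Pgam2. They were also -0.07 to 0.15 for Eno3, -0.09 to 0.17 for Ldha, -0.28 to 0.14 for Egln3 and -0.14 to 0.02 for Ndrg1. Without direction change, values reached 0 for Pfkm (-0.09 to 0), Pgam1 (-0.30 to 0) and Ankrd37 (0 to 0.38). Ratio differences ranged from -0.15 to 0.02 for Pfkm over Pfkl, -0.25 to 0.49 for Pgam2 over Pgam1, -0.36 to -0.07 for Eno3 over Eno1, -0.52 to -0.18 for Slc2a4 over Slc2a1 and -0.21 to -0.04 for Ldhb over Ldha. No paired analysis was possible because the replicate numbers only follow the order of the samples and the labels pair no libraries. Low counts limit Aldoc, Ankrd37, Slc16a3, Pgam1 and Adm.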
